A study of Mus musculus with 4 samples.

Results

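Metalloproteinases and their inhibitors were compared in mouse embryonic fibroblasts with and without focal adhesion kinase (FAK), a kinase that relays integrin signals at sites of matrix attachment. Members were taken by gene symbol: the matrix metalloproteinases (Mmp), the tissue inhibitors of metalloproteinases (Timp), the membrane-anchored ADAM proteases (Adam), the secreted ADAMTS proteases (Adamts) and the ADAMTS-like proteins (Adamtsl). This rule found 70 of the 18194 genes measured, and each gene was represented by its brightest probe set annotated to that gene alone. The level filter kept the 42 members that exceeded the median of all values (8.90 on the log2 scale) in at least 1 array: 12 Mmp, 3 Timp, 11 Adam, 12 Adamts and 4 Adamtsl genes. The other 28 did not pass it and are described apart. Just inside that limit were Adamts15, Mmp10 and Mmp9, with highest values of 8.97, 9.03 and 9.10, and just outside were Adam22, Adam11 and Timp4, with highest values of 8.85, 8.75 and 8.58.

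The study measured 4 groups with 1 Affymetrix Mouse Genome 430 2.0 array each: FAK +/+ (wild type) and FAK -/- (knockout) fibroblasts, both untreated and treated with endothelin-1 (ET-1), a vasoactive peptide hormone. All groups were used at passage 5, grown in 10% fetal bovine serum, and starved of serum for 24 h before a further 24 h with or without ET-1. The labels do not give the ET-1 dose, nor say how many embryos or lines stand behind each genotype, so a difference between lines and an effect of FAK cannot be told apart. With 1 array per group, a difference between arrays has no error estimate.

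Matrix metalloproteinases are zinc-dependent enzymes that are made as inactive precursors and cleave collagens, elastin, proteoglycans and other matrix proteins once a propeptide is removed. TIMPs bind the active site and block it. ADAM proteases release the outer parts of membrane proteins such as growth factor precursors and Notch, and ADAMTS proteases cleave large proteoglycans, procollagens and von Willebrand factor. ADAMTS-like proteins share the ancillary domains of ADAMTS proteases, lack the catalytic domain and bind to matrix microfibrils. In fibroblasts these genes set how matrix is degraded and remodelled.

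The ET-1-treated wild-type array stood apart from the others in its control transcripts. The Gapdh signal at the 3' end was 3.79 (log2) above that at the 5' end there, against 0.85 to 0.90 in the other arrays, and the gap for Actb was 1.81 against 0.66 to 1.30. This array enters every comparison below except the genotype difference in untreated cells and the ET-1 difference in the knockout. Marker genes also differed between genotypes. The summed linear level of 14 fibroblast markers was 188000 and 208000 in the untreated and ET-1-treated wild type, and 106000 and 91900 in the knockout. That of 6 mesothelial markers was 14500 and 6550 in wild type and 77700 and 67900 in the knockout, and that of 11 epithelial markers was 15700 and 11000 against 40600 and 32300. Of 9 macrophage markers, Cd68, Ptprc, Itgam and Mrc1 did not pass the level filter, and the summed level was 4240 and 4050 in wild type and 5420 and 4850 in the knockout. Among those that passed, Csf1r was 2.17-fold higher and Cd14 1.54-fold lower in the untreated knockout (limma adjusted p = 0.0146 and 0.0257). By the limma fit described below, 10 of the 13 fibroblast markers above the level filter fell and 1 rose in the knockout, and 5 of the 6 mesothelial markers rose. Of the 10 epithelial markers above it, Krt7, Krt8, Krt18 and Dsp rose and Krt19 fell, and the untreated genotype difference was above 0 for 5 and below 0 for 5. Krt14 was 4.57-fold higher in the untreated knockout without passing limma (adjusted p = 0.0568), and Krt19 was lower by 5.91-fold in untreated and 10.6-fold in ET-1-treated cells. Neutrophil (1900 to 2140), endothelial (2100 to 2430) and chondrocyte markers (2480 to 2690) varied little between arrays. S100a8, S100a9, Mpo, Pecam1, Cdh5, Acan and the epithelial cadherin gene Cdh1 did not pass the level filter. Elane, Csf3r, Kdr, Sox9, Col2a1 and Col9a1 of the same lists did pass it. So did the epithelial marker Epcam, which read 11.69 to 12.08 over the arrays. The part of the fibroblast, mesothelial and epithelial marker differences in the results below was not tested. Fewer cells of a type and less RNA per cell cannot be told apart in these bulk samples.

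Loss of FAK went with lower levels of the matrix-degrading genes Mmp2, Mmp3, Mmp11, Adamts5 and Adamts6 and of the inhibitor gene Timp1, and with higher levels of Mmp17, Adamts9 and Adamts20. Each of these 9 genes kept its direction at 2-fold or more with and without ET-1. In untreated cells 3 of the 42 members were higher in the knockout by 2-fold or more and 6 were lower by that size, against 4.78% and 4.59% of the 12290 genes tested. After ET-1 the counts were 3 higher and 10 lower, against 5.61% and 6.53% of all genes tested. Both treatment states together gave 3 members higher and 6 lower, against 3.47% and 4.0%. The median member difference was -0.13 (log2) in both states, against 0.02 untreated and -0.03 after ET-1 over all genes tested.

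The only test the design allows is an additive limma fit of genotype and treatment to all 4 arrays. Its error is the genotype by treatment term, with 1 residual degree of freedom, and not a spread between cultures. By this fit 3 members rose and 9 fell in the knockout at an adjusted p under 0.05, against 6.6% and 7.05% of all genes tested, and the number that rose was near that share. The 12 genes were the 9 above together with Adam19, Adamtsl3 and Adamtsl4, which fell. Without the ET-1-treated wild-type array the fit has no residual degree of freedom. The untreated differences do not use that array but are part of the same fit. Genes called by the fit share their sign there by selection, as all 12 did, so this is no separate check. Those differences were -0.87 for Adam19, -0.60 for Adamtsl3 and -0.64 for Adamtsl4. A gene can pass the level filter only through the arrays in which it is high, and 8 of the 42 members were above the median of all values in 1 to 3 arrays. Of the 12 called, Mmp3, Adamts6, Adam19 and Adamts20 were of this kind. Among the 34 members above it in all 4 arrays, 2 rose and 6 fell, which is 23.5% called, against 10.0% of the 10896 genes above it in all 4 arrays.

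**Figure D1:**
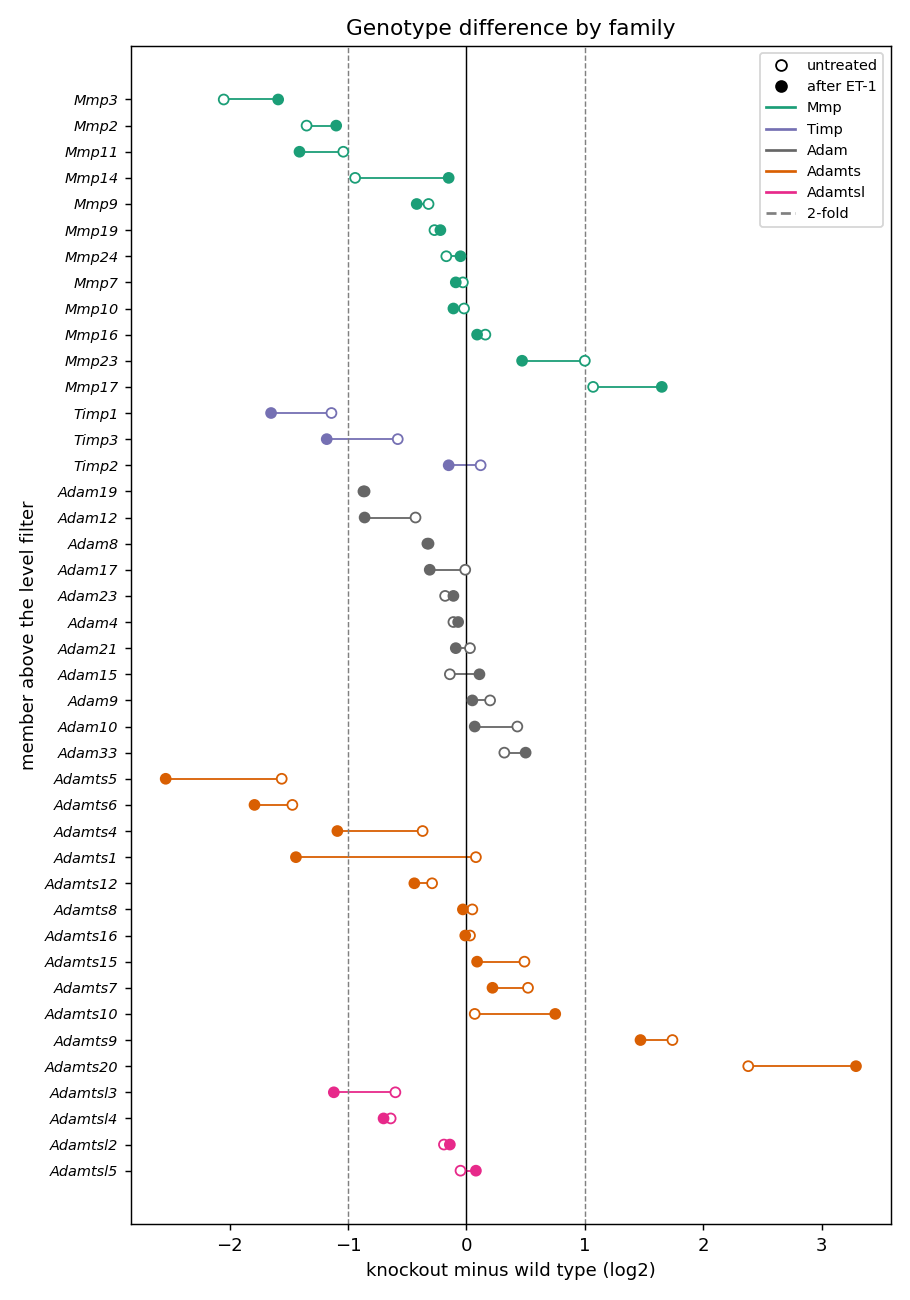
Knockout minus wild-type difference (log2, horizontal axis) for the 42 members above the level filter, by family and brightest probe set, in untreated cells (open circles) and after ET-1 (filled circles), with dashed lines at 2-fold. Adamts5 reaches -2.54 and Adamts20 reaches 3.29 after ET-1, while all 11 Adam genes stay inside 2-fold in both states.

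Promoter sequence is shown for the members that differed by 2-fold or more in both treatment states and have an entry in the RefSeq promoter table (build GRCm38.p6), with Mmp10, from the same run of Mmp genes, set beside Mmp3. That table holds 46 windows for 41 of the 70 members. The lines give the 250 bases before the annotated start, 5' to 3' on the gene's strand. Capitals mark 4 motifs, each searched on both strands. The AP-1 motif, bound by Fos and Jun proteins, was searched as TGAGTCA. The PEA3 motif, bound by Ets family factors, was searched as AGGAAG. The TATA motif of core promoters was searched as TATAAA. The GC box, bound by Sp family factors, was searched as GGGCGG. No marked motifs overlap in these lines.
Mmp3, lower in the knockout, chr9:7445572-7445821, plus strand: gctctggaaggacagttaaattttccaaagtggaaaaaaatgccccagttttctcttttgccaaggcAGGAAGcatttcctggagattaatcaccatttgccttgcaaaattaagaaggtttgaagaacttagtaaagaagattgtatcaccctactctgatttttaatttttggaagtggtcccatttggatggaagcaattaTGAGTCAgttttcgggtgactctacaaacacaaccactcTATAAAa
Mmp10, from the same gene run as Mmp3, chr9:7502092-7502341, plus strand: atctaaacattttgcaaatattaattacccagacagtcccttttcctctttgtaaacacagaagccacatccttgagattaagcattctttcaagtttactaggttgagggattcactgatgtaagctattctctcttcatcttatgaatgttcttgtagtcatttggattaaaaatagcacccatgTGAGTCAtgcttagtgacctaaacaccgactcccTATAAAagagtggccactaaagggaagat
Mmp11, lower in the knockout, chr10:75932503-75932752, minus strand: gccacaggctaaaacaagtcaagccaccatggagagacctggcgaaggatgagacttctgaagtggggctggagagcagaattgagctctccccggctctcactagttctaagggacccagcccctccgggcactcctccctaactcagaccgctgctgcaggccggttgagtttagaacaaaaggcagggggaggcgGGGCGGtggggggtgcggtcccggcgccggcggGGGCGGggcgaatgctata
Timp1, lower in the knockout, chrX:20869916-20870165, plus strand: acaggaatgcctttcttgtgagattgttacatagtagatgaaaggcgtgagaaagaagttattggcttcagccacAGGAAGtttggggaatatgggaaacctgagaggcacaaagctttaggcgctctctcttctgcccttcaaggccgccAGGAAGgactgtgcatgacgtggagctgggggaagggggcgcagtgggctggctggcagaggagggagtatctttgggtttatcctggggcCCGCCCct
Adamts9, higher in the knockout, chr6:92943535-92943784, minus strand: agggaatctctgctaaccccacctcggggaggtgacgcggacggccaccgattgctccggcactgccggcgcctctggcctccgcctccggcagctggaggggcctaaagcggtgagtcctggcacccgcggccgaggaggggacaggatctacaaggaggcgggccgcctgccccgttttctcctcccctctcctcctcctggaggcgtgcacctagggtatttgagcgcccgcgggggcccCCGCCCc
Adamts20, higher in the knockout, chr15:94404351-94404600, minus strand: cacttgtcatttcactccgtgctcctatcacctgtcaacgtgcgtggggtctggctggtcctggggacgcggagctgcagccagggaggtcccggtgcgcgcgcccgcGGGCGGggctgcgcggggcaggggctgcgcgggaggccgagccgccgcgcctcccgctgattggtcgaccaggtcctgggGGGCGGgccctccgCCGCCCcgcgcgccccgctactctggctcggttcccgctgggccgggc
Mmp3 and Mmp10 each hold an AP-1 motif, which starts 46 and 63 bases before the start, and a TATA motif, 7 and 29 bases before it. The other 4 windows hold neither motif but hold 1 to 3 GC boxes, and Timp1 also holds 2 PEA3 motifs. Of all 32851 windows in the table, 4.46% hold the AP-1 motif, 29.5% PEA3, 12.4% TATA and 32.7% the GC box. A match is a description of letters and not a site of binding.

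Mmp3, stromelysin-1, cleaves many matrix proteins and activates other Mmp precursors. Its values (log2) were 9.43 and 9.37 in untreated and ET-1-treated wild type, and 7.38 and 7.78 in the untreated and ET-1-treated knockout. Both knockout arrays were below both wild-type arrays and below the level filter, so the fold is uncertain. Mmp3 was 4.14-fold lower in the untreated knockout and 3.02-fold lower after ET-1, and it fell by 1.82 ± 0.15 (SE, limma adjusted p = 0.00927). On chromosome 9 it lies in a run of Mmp genes that RefSeq orders as Mmp13, Mmp12, Mmp1b, Mmp3, Mmp1a, Mmp10, Mmp8, Mmp27, Mmp20 and Mmp7, 9 of which are members here. Windows of 7 of these 9 genes hold an AP-1 motif and those of 7 hold a TATA motif. Mmp3 was the exception in its genotype difference. The other 8 differed by at most 0.10 between genotypes in untreated cells and by at most 0.47 after ET-1 (log2). Of these only Mmp7 and Mmp10 passed the level filter, which limits the comparison.

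Mmp2, gelatinase A, degrades denatured and basement membrane collagen and is the typical gelatinase of fibroblasts. It read 12.26 and 12.82 in untreated and ET-1-treated wild type and 10.91 and 11.71 in the knockout. The knockout arrays were the lower pair, and both genotypes read higher with ET-1 than without. Mmp2 was 2.55-fold lower in the untreated knockout and 2.15-fold lower after ET-1, and it fell by 1.23 ± 0.17 (limma adjusted p = 0.0253). Its other probe set gave differences of -1.21 and -0.91. Mmp9, gelatinase B, read 8.94, 9.10, 8.62 and 8.68 in the same order of arrays, and its difference of -0.37 ± 0.10 did not pass limma (adjusted p = 0.0954).

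Mmp11, stromelysin-3, is a stromal enzyme activated inside the cell by furin-like convertases. It read 10.29 and 10.66 in wild type and 9.26 and 9.25 in the knockout, untreated and after ET-1. It fell by 1.22 ± 0.13 (limma adjusted p = 0.0143), and the 2 knockout arrays were nearly equal.

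Membrane-bound Mmp genes did not move together. Mmp17, a membrane-type enzyme held by a lipid anchor, read 9.34 and 8.95 in untreated and ET-1-treated wild type and 10.40 and 10.60 in the knockout. It rose by 1.36 ± 0.17 (limma adjusted p = 0.0200). Mmp14, the transmembrane enzyme that activates Mmp2 at the cell surface, read 12.35 and 11.92 in wild type and 11.41 and 11.76 in the knockout, and its difference was -0.94 untreated and -0.15 after ET-1. Its limma difference was -0.55 ± 0.25 (adjusted p = 0.254). Another probe set of Mmp14 gave -1.11 untreated and 0.99 after ET-1, so the direction after ET-1 depended on the probe set. Mmp16 (0.16 and 0.09) and Mmp24 (-0.17 and -0.05), also transmembrane enzymes, were within 2-fold by their brightest probe sets. Other probe sets of Mmp16 above the level filter gave 1.08 after ET-1 (0.13 untreated) and 0.92 untreated (0.38 after ET-1). Mmp23, anchored by its amino-terminal end, read 10.40 and 10.83 in wild type and 11.40 and 11.30 in the knockout. By this probe set it was just under 2-fold higher in untreated cells and 1.38-fold higher after ET-1, and did not pass limma (adjusted p = 0.0872). Its other probe set gave 1.27 untreated and 0.35 after ET-1. With the array medians subtracted it passed both the 2-fold limit in untreated cells (1.04) and limma (adjusted p = 0.0388), and with the mean of its probe sets it passed the 2-fold limit (1.13).

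**Figure D2:**
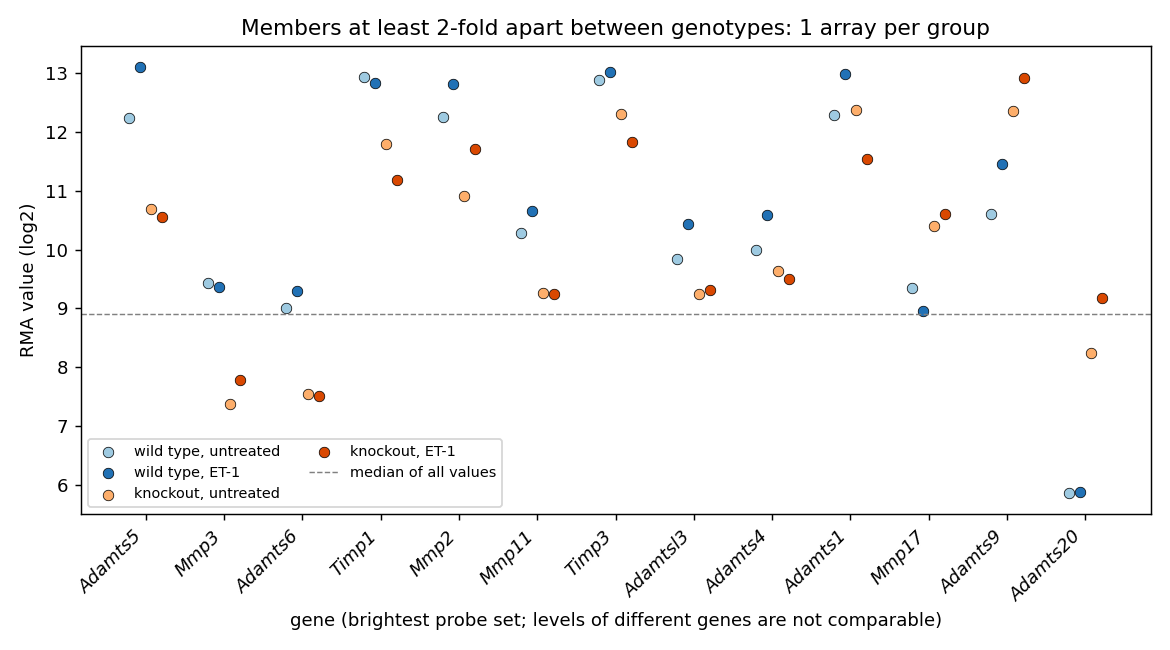
RMA value (log2, vertical axis) in each of the 4 arrays for the 13 members at least 2-fold apart between genotypes in untreated or ET-1-treated cells, ordered by the limma genotype difference, with the median of all values dashed. Both knockout arrays lie below both wild-type arrays for Adamts5 to Adamts4, Adamts1 is mixed, and both lie above for Mmp17, Adamts9 and Adamts20.

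Among the inhibitors, Timp1, an inhibitor of most soluble Mmp enzymes, read 12.94 and 12.84 in untreated and ET-1-treated wild type and 11.80 and 11.19 in the knockout. It was 2.20-fold lower in the untreated knockout and 3.13-fold lower after ET-1, and it fell by 1.39 ± 0.21 (limma adjusted p = 0.0280). Its promoter window above holds no AP-1 match. Timp3, which binds to matrix and also inhibits several ADAM and ADAMTS proteases, read 12.88 and 13.02 in wild type and 12.30 and 11.83 in the knockout. Its difference was -0.58 untreated and -1.18 after ET-1, and -0.88 ± 0.22 by limma (adjusted p = 0.0836). It passed limma with the array medians subtracted (adjusted p = 0.0458) or quantile normalised again (0.0407). Of its 3 other probe sets above the level filter, 1 gave the opposite sign after ET-1 (0.13).

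Timp2, which inhibits Mmp enzymes and also takes part with Mmp14 in activating Mmp2, read 13.67 and 14.07 in wild type and 13.79 and 13.92 in the knockout. By its brightest probe set the arrays of both genotypes overlapped, and limma gave -0.01 ± 0.13 (adjusted p = 0.966). Genotype differences by its other probe sets above the level filter ran from -0.14 to 0.28 untreated and from -0.03 to 0.85 after ET-1. Timp4 read 8.45 to 8.58 in the 4 arrays and did not pass the level filter. In RefSeq Timp1, Timp3 and Timp4 overlap the synapsin genes Syn1, Syn3 and Syn2.

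By their brightest probe sets, none of the 11 Adam genes above the level filter was 2-fold apart between genotypes in either treatment state, and their differences ran from -0.87 to 0.43 untreated and from -0.86 to 0.50 after ET-1. The main sheddases were close between genotypes by their brightest probe sets. Adam10, which cleaves Notch and cadherins, read 13.28 and 13.63 in wild type and 13.72 and 13.70 in the knockout (limma 0.25 ± 0.15, adjusted p = 0.360). Adam17, which releases tumour necrosis factor and epidermal growth factor receptor ligands, read 11.29 and 11.77 in wild type and 11.27 and 11.45 in the knockout (-0.16 ± 0.17, adjusted p = 0.602). Another Adam17 probe set above the level filter gave 0.24 untreated and 0.73 after ET-1, against -0.01 and -0.31 by the brightest. Adam9 read 13.83 and 14.19 in wild type and 14.04 and 14.24 in the knockout.

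Adam19, a meltrin that sheds neuregulin, was the member of this family that passed limma. It read 9.76 and 9.64 in wild type and 8.88 and 8.78 in the knockout, and fell by 0.87 ± 0.09 (adjusted p = 0.0137). Both knockout arrays were below the level filter, so it was tested only because of its wild-type values. Adam12, the related meltrin alpha, read 10.17 and 10.55 in wild type and 9.74 and 9.69 in the knockout, and its difference of -0.65 ± 0.14 did not pass (adjusted p = 0.0658). Adam12 passed with the mean of its probe sets (adjusted p = 0.0373) or the array medians subtracted (0.0264). Adam33 read 10.01 and 9.98 in wild type and 10.33 and 10.47 in the knockout by its brightest probe set (differences of 0.32 and 0.50), and its other probe set gave 0.80 and 1.17.

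Proteoglycan-cleaving ADAMTS genes differed in opposite directions. Adamts5, the main aggrecanase of mouse cartilage, read 12.24 and 13.10 in untreated and ET-1-treated wild type and 10.69 and 10.56 in the knockout. It was 2.94-fold lower in the untreated knockout and 5.81-fold lower after ET-1, and fell by 2.05 ± 0.29 (limma adjusted p = 0.0255). The 2 other probe sets above the level filter gave -1.19 and -0.87 untreated and -2.53 and -2.09 after ET-1. Adamts4, also an aggrecanase, read 10.00 and 10.59 in wild type and 9.63 and 9.50 in the knockout, so it was 1.29-fold lower without ET-1 and 2.13-fold lower with it. It did not pass limma (-0.73 ± 0.20, adjusted p = 0.103), except with the array medians subtracted (0.0374).

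Adamts9 and Adamts20 are close relatives that cleave versican, and both rose. Adamts9 read 10.61 and 11.45 in wild type and 12.35 and 12.92 in the knockout, a rise of 1.60 ± 0.18 (limma adjusted p = 0.0147). Another of its probe sets gave 1.96 and 2.65, and a further one 0.09 and 0.19, so its probe sets disagreed in size. Adamts20, known for a role in melanoblast survival, read 5.86 and 5.88 in wild type and 8.25 and 9.18 in the knockout. It was 5.21-fold higher untreated and 9.81-fold higher after ET-1, and rose by 2.84 ± 0.27 (limma adjusted p = 0.0117). Only the ET-1-treated knockout array was above the level filter, so this fold is uncertain. Their promoter windows, shown above, hold 1 and 3 GC boxes and no AP-1, PEA3 or TATA match.

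Adamts1, another versican-cleaving protease, lies next to Adamts5 on chromosome 16. It read 12.29 and 12.98 in untreated and ET-1-treated wild type and 12.37 and 11.54 in the knockout. The untreated arrays were close to each other and the ET-1-treated ones were not: the genotype difference was 0.08 untreated and -1.44 after ET-1 (limma -0.68 ± 0.41, adjusted p = 0.365). Adamts8 (0.05 and -0.03) and Adamts15 (0.49 and 0.09), which neighbour each other on chromosome 9, were within 2-fold.

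Adamts6 and Adamts10 are close relatives linked to microfibrils. Adamts6 read 9.01 and 9.30 in wild type and 7.54 and 7.51 in the knockout, and fell by 1.63 ± 0.13 (limma adjusted p = 0.00887). Both knockout arrays were below the level filter, and its other probe set gave -0.94 and -1.36. Adamts10 differed by 0.07 untreated and 0.75 after ET-1 (adjusted p = 0.264). Adamts7 (0.52 and 0.22) and Adamts12 (-0.29 and -0.44), a related pair, were within 2-fold. So was Adamts16, with 0.03 and -0.01 by its brightest probe set and -0.27 and -0.76 by the other.

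Of the ADAMTS-like genes, Adamtsl3 read 9.84 and 10.43 in wild type and 9.24 and 9.31 in the knockout and fell by 0.86 ± 0.16 (limma adjusted p = 0.0443). Adamtsl4, which binds fibrillin-1, read 10.85 and 10.44 in wild type and 10.21 and 9.74 in the knockout and fell by 0.67 ± 0.10 (adjusted p = 0.0308). With no level filter, both missed the threshold (adjusted p = 0.0685 and 0.0576). Adamtsl2 read 10.43 and 10.24 in wild type and 10.24 and 10.09 in the knockout. Adamtsl5 differed by -0.05 and 0.08 by its brightest probe set, but by 1.54 and 1.34 by the other.

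The 28 members that did not pass the level filter read 5.25 to 8.85. They held 17 of the 28 Adam genes, among them Adam2, Adam3, Adam5, Adam18, Adam24, Adam25 and Adam32. They also held the collagenase genes Mmp1a, Mmp1b, Mmp8 and Mmp13. By the brightest probe sets, genotype differences in this group were at most 0.21 untreated and 0.47 after ET-1 in size (log2). Adam22 has another probe set that did pass the level filter, with a highest value of 8.96, and it differed by 0.46 untreated and 0.44 after ET-1. Mmp12, the macrophage elastase, read 6.18 to 6.33.

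The members' brightest probe sets stayed within 2-fold of untreated cells after ET-1. In wild type 0 of the 42 were 2-fold or more higher or lower, against 0.781% and 1.17% of all genes tested. In the knockout 0 were 2-fold or more higher or lower, against 0.236% and 0.277%. At such shares, 0 among 42 genes is near the background. Other probe sets did pass 2-fold: those of Adam10 (-1.80) and Mmp14 (-1.90) in wild type, and 1 of Adamts9 (1.04) in the knockout. In wild type Adamts5 (0.86), Adamts9 (0.84), Adamts1 (0.69) and Adamtsl3 (0.59) were more than 1.5-fold higher after ET-1. In the knockout Adamts20 (0.93) and Mmp2 (0.80) were more than 1.5-fold higher, and Adamts1 (-0.83) and Timp1 (-0.62) more than 1.5-fold lower. The share of all genes tested past 1.5-fold is not given, so these genes are not set against a background. By their brightest probe sets, Mmp2 (0.56 in wild type) and Adamts9 (0.57 in the knockout) were above 0.5 in both genotypes. The other probe set of Mmp2 gave 0.31 in wild type and 0.61 in the knockout. Those of Adamts9 gave 0.36 and -0.02 in wild type and 1.04 and 0.08 in the knockout. Averaged over genotypes, 0 members and 0 of all genes passed limma, with a lowest adjusted p of 0.780. At an unadjusted p under 0.05 there were 5 members (Mmp2, Adamts9, Adamts12, Adamtsl4 and Adamtsl5), against 5.23% of all genes tested.

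**Figure D3:**
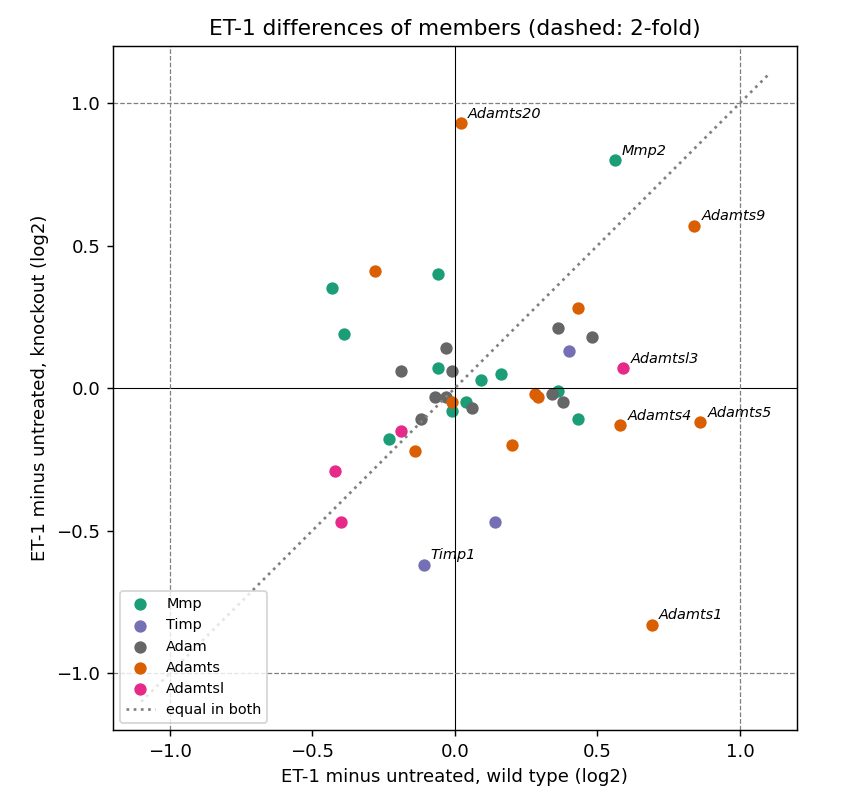
ET-1 minus untreated difference (log2) in wild type (horizontal axis) and in the knockout (vertical axis) for the 42 members above the level filter, coloured by family, with names where either difference is 1.5-fold or more, and with Adamts4 at 0.58 in wild type. No point passes the dashed 2-fold lines, and Adamts1 lies at 0.69 in wild type and -0.83 in the knockout.

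By the brightest probe sets, the ET-1 difference in the knockout minus that in wild type was -1 or less for 1 member, Adamts1 (-1.52). It was 1 or more for 0 members, against 1.31% of all genes tested at the lower limit and 1.59% at the upper. Adamts5 was close to -1 at -0.98, and its 2 other probe sets above the level filter gave -1.33 and -1.23. Adamts4 (-0.72) and Timp3 (-0.60) were also lower, and Adamts20 (0.91) and Mmp14 (0.78) higher. Other probe sets above the level filter gave 2.10 for Mmp14 and, for Adam10, 1.71 and 0.12 against -0.36 by the brightest. Those of Timp3 gave 0.52, -0.37 and -0.57, so its direction depended on the probe set. There is no test of these differences, and all of them use the ET-1-treated wild-type array.

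Probe sets of the same gene disagreed more in comparisons that use that array. Of the 42 members, 16 had at least 2 probe sets above the level filter. The range between probe sets of a gene had a median of 0.58 (log2) for the ET-1 difference in wild type and 0.18 in the knockout, and reached 1 or more for 4 genes and 0 genes. For the genotype difference the median range was 0.39 without ET-1 and 0.86 with it. Adam10 gave ET-1 differences of 0.34, -0.32 and -1.80 in wild type and -0.02, -0.20 and -0.09 in the knockout, and by the last of these the gene was 1.97 higher in the knockout after ET-1. Mmp14 gave -0.43 and -1.90 in wild type, against 0.35 and 0.20 in the knockout. For Timp2 the 5 probe sets ran from -0.73 to 0.40 in wild type and from -0.05 to 0.37 in the knockout. The part of the large 3' to 5' gap of the ET-1-treated wild-type array in these ranges was not tested.

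**Figure D4:**
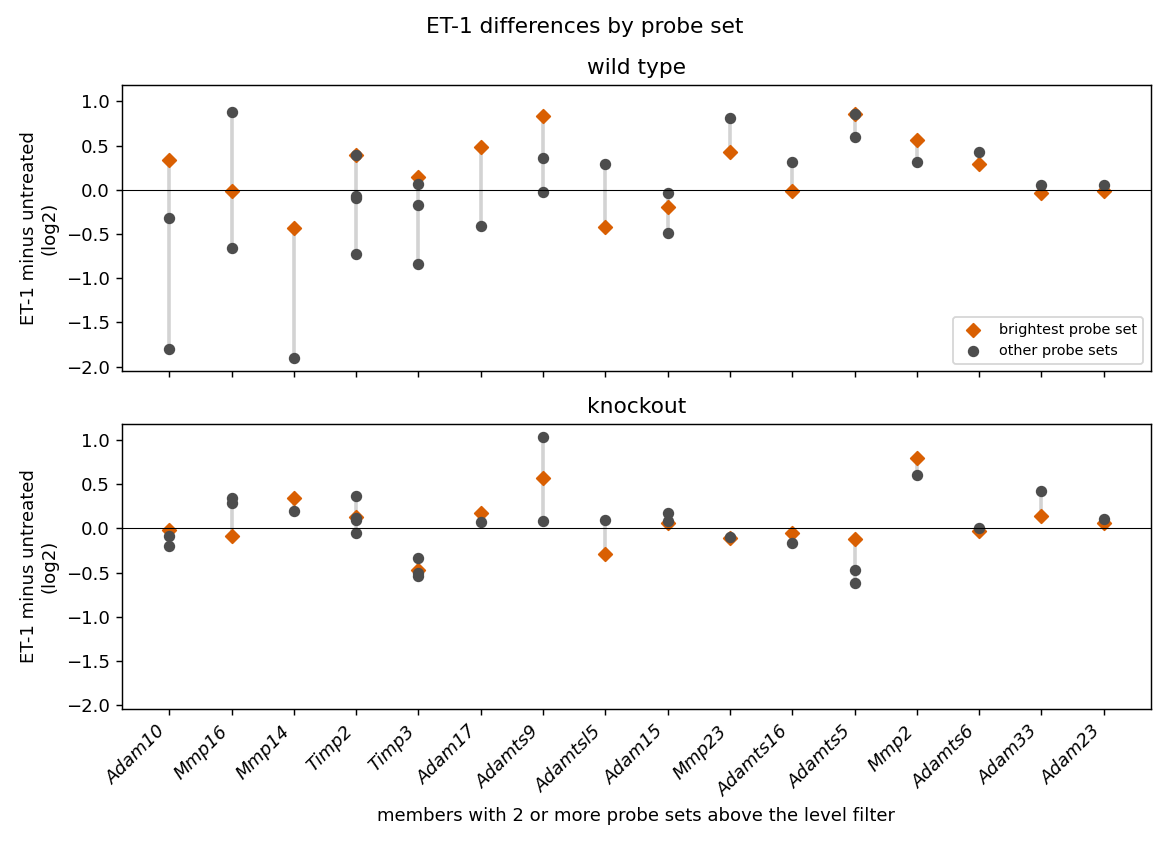
ET-1 minus untreated difference (log2, vertical axis) for each probe set above the level filter of the 16 members with at least 2 such probe sets, in wild type (upper panel) and the knockout (lower panel); diamonds mark the brightest probe set. Adam10 and Mmp14 span from 0.34 to -1.80 and from -0.43 to -1.90 in wild type, while no gene spans 1 or more in the knockout.

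Genes that act with these proteases were counted by the same limma fit, in which 6.6% of all genes tested rose and 7.05% fell. The counts are of list genes above the level filter, and counts of 0 to 2 in lists of this size are not far from those shares. Of 20 activators and inhibitors 14 passed it, and 3 rose and 5 fell by limma. Pcolce2, an enhancer of procollagen processing (-4.29 untreated), Serpinb2, an inhibitor of plasminogen activators (-3.39), and Lrp1, the endocytic receptor that clears many proteases (-1.41), fell, and the proprotein convertase Pcsk5 (3.95) rose. Of 20 sheddase partners and substrates 18 passed it, and 2 rose and 4 fell. The growth factor gene Hbegf, a substrate of Adam17, read 11.42 and 11.62 in wild type and 9.91 and 10.03 in the knockout (limma -1.55, adjusted p = 0.00831). Ereg, another shed growth factor, rose (3.50 untreated), as did the Notch ligand Jag1 (1.27), and Tspan17, a tetraspanin partner of Adam10, fell (-0.94). Pcolce2 and Tspan17 were below the level filter in both knockout arrays, and Ereg in both wild-type arrays. Serpinb2 was above it only in the untreated wild type (9.64), and Pcsk5 was below it in the ET-1-treated wild type (6.73). Such genes passed the level filter through the arrays in which they are high, which limits the folds and the counts.

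Of 18 substrates and partners of the secreted enzymes 13 passed the level filter, and 2 rose and 5 fell. Vcan, which encodes the versican cleaved by Adamts1, Adamts5, Adamts9 and Adamts20, read 12.07 and 11.77 in wild type and 9.87 and 9.45 in the knockout, and fell (limma -2.26, adjusted p = 0.00586). Thbs1 (-3.39) and Thbs2 (-2.68), thrombospondins that bind Mmp2, fell too. Dcn, which encodes the collagen-binding proteoglycan decorin and is also on the fibroblast marker list, rose (1.83 untreated, limma adjusted p = 0.00671). The other gene of the list that rose was Fbn2, a fibrillin of microfibrils (1.56 untreated, limma adjusted p = 0.0200), which was named after its value was seen. Of 19 genes of other metalloprotease families and related proteins 11 passed it, and 4 rose and 0 fell. The largest untreated differences were those of the aminopeptidase gene Enpep (3.07) and the carboxypeptidase-like gene Cpxm1 (2.29). Fbn2, Enpep and Cpxm1 were below the level filter in both wild-type arrays, so they were tested only because of their knockout values and their folds are uncertain.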

How the data were processed

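The values deposited by the authors are on a log2 scale, 1 for each probe set and array. They were made with RMA, per the submitters' processing notes, which name no version. RMA corrects background, brings arrays to a common distribution and summarises each probe set. The values were used as deposited. Array medians were 8.89 to 8.92, and the table held 0 columns of other samples.

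Of 45101 probe sets, the platform's annotation paired 34958 with 1 gene, 932 with several and left 9211 unlisted. Members had 124 probe sets paired with 1 gene, and 5 probe sets that pair a member with another gene were left out. All 70 member genes matched RefSeq (GRCm38.p6) by Entrez identifier, used for names, gene order and promoter sequence. No coordinates belong to the deposited values.

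Levels of different probe sets are not comparable, so only differences within a probe set are compared. Differences between arrays were counted at 2-fold or more. limma 3.58.1 in R 4.3.3 (lmFit, and eBayes with an intensity trend, prior degrees of freedom 2.996) was fitted to 12290 genes with Benjamini-Hochberg adjustment, and was tested on simulated data. Python 3.11.15, numpy 2.4.6, pandas 2.3.3 and matplotlib 3.10.9 did the rest. Precision is limited by the number of arrays.

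The members, gene lists and rules were chosen with earlier results of these data known. Values in every array are given for members 2-fold apart in any comparison, all Timp genes, Mmp2, Mmp9, Mmp14, Adam10, Adam17 and the brightest of each family. In the further lists at most 4 genes with the largest untreated difference are named. Some other members are given for their part in a family.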

Additional observations from a re-analysis of the deposited data

Results flagged for a closer look

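Adamts1 was singled out because ET-1 went with differences of opposite sign in the 2 genotypes. Wild type differed by 0.69 and the knockout by -0.83 (log2), which gives -1.52 for the knockout minus wild type. With 1 array per group this difference was not tested. It rests on 1 probe set, and it uses the ET-1-treated wild-type array whose control transcripts stood apart.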

How the results depend on the processing

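Alternatives were the mean over a gene's probe sets, subtraction of array medians, a second quantile normalisation, no level filter, a fold limit of 1.5 and, for limma, eBayes without a trend. No value of a named member at 2-fold or more changed sign. With a fold limit of 1.5 the counts of members were 10 lower in the untreated knockout, 4 higher after ET-1 in wild type, 2 higher and 2 lower after ET-1 in the knockout, and 4 above and 4 below for the difference of ET-1 differences. The share of all genes tested past 1.5-fold is not given, so these counts show only how the limit matters and not an excess among members. Array medians subtracted gave 2 below for that difference, adding Adamts5 (-1.04). The mean of all probe sets gave 5 members that rose by limma, adding Adam33 and Adamtsl5 (adjusted p = 0.0221 and 0.0126). It also added Adam12, which fell, and left out Adam19, whose mean lay below the level filter. Subtracted array medians added Adam12, Adamts4, Mmp23 and Timp3, and the second quantile normalisation added Timp3 to the limma calls. At 2-fold in untreated cells, Mmp23 was added by the mean of probe sets and by subtracted medians, and Mmp14 (-1.02) by quantile normalisation. The near-zero limma difference of Adamtsl5 changed sign with quantile normalisation (adjusted p = 0.950). Averaging each gene's probe sets took Adamts4 (-0.76) and Timp3 (-0.68) below 2-fold after ET-1, and quantile normalisation did not (-1.12 and -1.16). Without a trend, Adamtsl3 missed the limma threshold (adjusted p = 0.0694). The cause was not tested. Members called by limma for genotype numbered 10 to 16 over these settings, of which 10 to 12 were among the original 12. No paired analysis was possible because each group has 1 array, and leaving out an array leaves no residual degree of freedom. Dim members, such as Adamts20, Mmp3, Adamts6 and Adam19, limit what their folds show.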
